A study of Mus musculus with 15 samples.

Results

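The 10 genes described here govern the step from G1 into S phase, and their messages were measured in mouse CD8+ T cells primed with antigen alone or with antigen and costimulation. They are the D cyclins Ccnd2 and Ccnd3, the E cyclins Ccne1 and Ccne2, the kinases Cdk2, Cdk4 and Cdk6, the ubiquitin ligase subunit Skp2, and the inhibitors Cdkn1a and Cdkn1b. They were chosen by symbol for this role and make up 10 of the 55536 genes with a GENCODE M21 identifier in the count table. The Ag group was CD8+ T cells of OT-I transgenic C57BL/6J mice, whose T cell receptor recognizes an ovalbumin peptide, transferred into C57BL/6J recipients that received the peptide SIINFEKL with control rat IgG. Recipients of the Ag+Costim group received the same peptide with agonist antibodies against CD134 (OX40) and CD137 (41BB), and both groups were sorted from spleen and lymph nodes at day 4 by the labels, although the study's text gives a somewhat shorter time. Each group has 5 libraries of poly(A) RNA, and another 5 libraries of Naive cells were not analysed here. The cells carry 1 transgenic receptor and were primed in a host with its own lymphocytes, the study used mice of both sexes and describes its replicates as separate mice, and the labels do not name the animals.

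As background, a resting T cell is held in G1 until the D cyclins and their partners Cdk4 and Cdk6 start to phosphorylate the retinoblastoma protein. This frees E2F factors, which drive E cyclins and the genes of DNA replication, and cyclin E with Cdk2 completes the step. Cdkn1b (p27) and Cdkn1a (p21) bind and restrain these kinase complexes, and Skp2 is the subunit of the SCF ubiquitin ligase that selects p27 for destruction, so that antigen-driven clonal expansion passes through the balance of these proteins. Much of this control acts on protein, which was not measured here.

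The libraries were unequal before any comparison of genes. Totals of the estimated counts ran from 59.6 M to 449.4 M in Ag and from 332.3 M to 639.1 M in Ag+Costim (M, counts in units of 1e6), and the correlation between libraries of a group was 0.753 to 0.964 in Ag and 0.943 to 0.95 in Ag+Costim. The number of genes with a count was 48058, 51778 and 40441 in Ag replicates 1, 3 and 4, 21779 and 20714 in Ag replicates 2 and 5 and 28727 to 30340 in Ag+Costim, and its part in the results was not tested. Ag replicates 1 and 4 stood apart from the other 3 Ag libraries in the level of all 10 genes, and Ag replicate 3 was the shallowest library and had the highest sum of 7 erythroid genes, 1104 CPM (normalized counts per 1e6 counts), against 14.7 to 126 in the other Ag and 3.79 to 40.0 in the Ag+Costim libraries. The 12 CD8+ T cell markers summed to 5102 to 9795 CPM in Ag and 7044 to 7860 in Ag+Costim, the highest sum of the cell type lists in every library. Markers of other cells were present at lower sums, with 7 B cell genes at 642 to 1184 and 514 to 764 CPM, 9 myeloid genes at 63.5 to 225 and 134 to 253 CPM, 4 CD4 T cell genes at 3.73 to 26.3 and 3.15 to 8.18 CPM, and 4 NK cell genes at 25.8 to 98.4 and 54.1 to 102 CPM in Ag and Ag+Costim. Of the NK cell list, Eomes, which activated CD8+ T cells also express, made up most of the sum at 18.1 to 96.3 and 53.3 to 101 CPM, with a fitted log2 difference of 0.49, whereas Ncr1, Klrb1c and Klra8 had differences of -3.24, -2.30 and -3.20, Ncr1 without overlap, and none passed the test. All 7 B cell and all 7 erythroid genes had lower fitted levels in Ag+Costim, with median log2 differences of -2.62 and -3.83, and 0 of them passed. None of these marker genes was at 0 in every library, and the part of such cells in the results was not tested. In bulk RNA, fewer cells in a given phase and less RNA per cell cannot be told apart.

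Across the 10 genes, Ag+Costim libraries were alike and Ag libraries were not. The highest Ag library exceeded the lowest by 3.19-fold to 27.1-fold depending on the gene, and the highest Ag+Costim library exceeded the lowest by 1.12-fold to 2.49-fold. The fitted level was above that of Ag in 8 of the genes and below it in 2, Ccnd2 and Cdkn1b, where 37.7% of all genes tested and 75.6% of those with a mean of at least 10 CPM were higher in Ag+Costim. No gene passed a Benjamini-Hochberg (BH) adjusted p of 0.05 in edgeR's quasi-likelihood test, either among the 10 or among all 24262 genes tested (0%). At an unadjusted p under 0.05, 2 of the 10 were higher in Ag+Costim, Skp2 and Cdk6, and 0 were lower, against 7.89% of all genes higher and 10.7% lower. Among the 8620 genes with a mean of at least 10 CPM, which includes every member except Cdkn1a, the share higher was 20.3%, close to the 2 of 10 seen here. Skp2 and Ccne2 were the genes whose 5 Ag+Costim values all lay above the 5 Ag values, and such separation was found in 4.48% of all genes and 11.3% of those at 10 CPM or more. None of the 10 was separated in the lower direction, which 1.13% of all genes were.

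**Figure D1:**
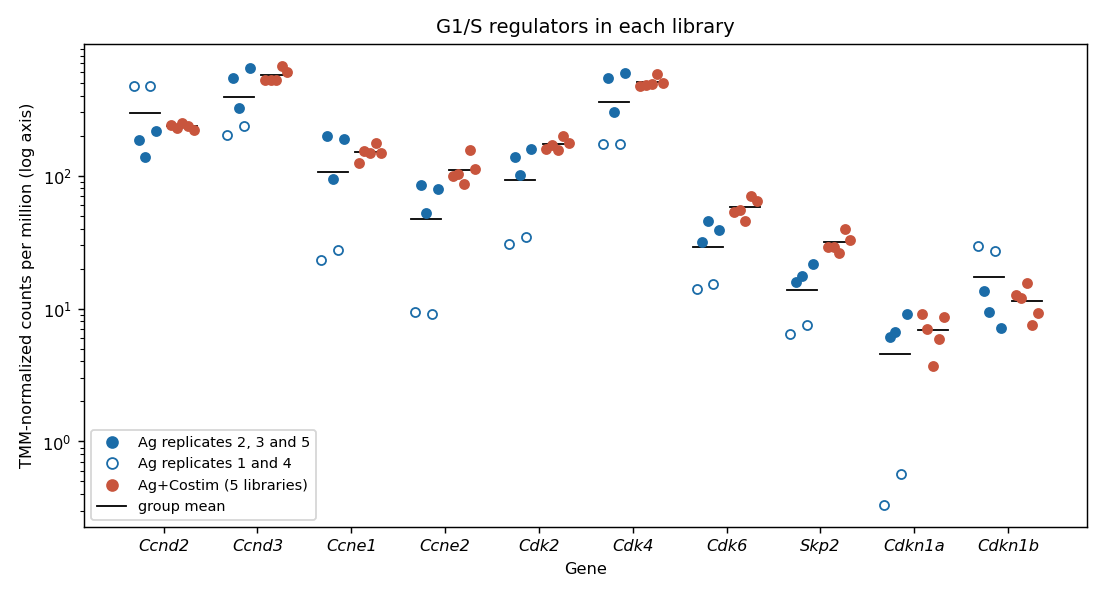
Each point is the level of a gene in 1 library, in TMM-normalized CPM on a log axis, with Ag in blue, Ag+Costim in red, Ag replicates 1 and 4 as open circles and group means as lines. The open circles lie above all other libraries for Ccnd2 and Cdkn1b and below all other libraries for the remaining 8 genes, and Skp2 and Ccne2 are the genes with no overlap between the groups.

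Other tests of the same counts gave other numbers of calls. DESeq2 called 2 of the 10, Skp2 (adjusted p = 0.0130) and Cdk6 (adjusted p = 0.0422), both higher in Ag+Costim, where 2.58% of all genes were called higher and 19.8% lower. Limma voom with a quality weight for each library called all 10, with 8 higher and 2 lower, where 25.8% of all genes were called higher and 26.4% lower. That fit reduces the weight of libraries that deviate from their group, and its fold changes ran up to 3.65 on the log2 scale for Cdkn1a. How many of the 10 genes were called thus differed between tests of the same libraries.

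Skp2 was the member with the smallest adjusted p. It was at 6.48, 15.7, 17.7, 7.55 and 21.5 CPM in Ag replicates 1 to 5 and at 29.1, 29.2, 26.3, 39.4 and 33.1 CPM in Ag+Costim replicates 1 to 5. All 5 Ag+Costim libraries lay above the highest Ag library. The means were 13.8 ± 6.54 (SD, n = 5) and 31.4 ± 5.08 CPM (SD, n = 5), and the fitted difference was 2.28-fold, or 1.19 ± 0.32 (log2, SE), with a BH of 0.194 in edgeR. Without Ag replicates 1 and 4, an alternative chosen after the data were seen, the difference was 0.79, the groups did not overlap and the BH was 0.122. Separation with Ag+Costim higher was found in this setting for 4 members, Ccnd2, Ccne2, Cdk6 and Skp2, and for 6.92% of all genes. The share among genes at 10 CPM or more was not computed in this setting. Other subunits of the same SCF ligase, named for their function after their values were seen, had fitted log2 differences of 0.65 for the scaffold Cul1, 0.56 for the Skp2 cofactor Cks1b, 0.22 for the adaptor Skp1a and 0.08 for the RING protein Rbx1, with BH values of 0.228, 0.576, 0.484 and 0.858. Of these, Cul1 was the one whose groups did not overlap.

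Of the E cyclins, Ccne2 had no overlap between groups and Ccne1 had. Ccne2 was at 9.49, 84.6, 52.6, 9.03 and 78.7 CPM in the Ag libraries and at 99.2, 102, 86.8, 155 and 112 CPM in the Ag+Costim libraries. The groups did not overlap, although the highest Ag and the lowest Ag+Costim library were close. The fitted difference was 2.37-fold, or 1.24 ± 0.59 (log2, SE), with a BH of 0.277. Ccne1, which encodes the other E cyclin, was at 23.2, 198, 94.3, 27.4 and 187 CPM in Ag and at 124, 154, 149, 175 and 148 CPM in Ag+Costim. Ag replicates 2 and 5 exceeded every Ag+Costim library, and the fitted difference of 0.50 ± 0.54 was smaller than its error (BH = 0.563). Without Ag replicates 1 and 4 the difference of Ccne1 was -0.083 and that of Ccne2 0.63.

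The ratio of the E cyclins within a library does not depend on how libraries are scaled. Expressed as counts per transcript length, the level of Ccne1 was 3.68, 3.39, 2.58, 4.45 and 3.47 times that of Ccne2 in Ag replicates 1 to 5 and 1.85, 2.23, 2.56, 1.69 and 1.94 times in Ag+Costim. No Ag+Costim library reached the lowest Ag ratio, though the margin between 2.58 and 2.56 was narrow and the lowest Ag ratio came from the shallowest library. Every other ratio computed between members overlapped between groups. Among them were Cdk4 per Cdk6 (25.9 to 80.0 and 31.1 to 46.7) and Cdk2 per Cdkn1b (1.32 to 24.9 and 11.9 to 31.3). The share of all gene pairs that separate in this way was not computed. Ag replicates 1 and 4, far from the others in level, had ratios on the same side as the remaining Ag libraries. Ccne2 shares 609 exonic bases with Ints8 on the opposite strand, which was at 78.5 to 111 CPM by library total, and the kit does not keep strand, so reads of the shared part cannot be told apart.

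Cdk2, the partner of the E cyclins, was at 30.6, 139, 101, 34.3 and 158 CPM in Ag and at 159, 169, 155, 198 and 177 CPM in Ag+Costim. Ag replicate 5 lay just above the lowest Ag+Costim library, so the groups overlapped by a single value. Its fitted difference was 1.86-fold, 0.89 ± 0.43 (log2, SE), with a BH of 0.277.

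Of the D cyclins, Ccnd3 was the more abundant and Ccnd2 the one that was highest in Ag replicates 1 and 4. Ccnd3 was at 201, 538, 325, 237 and 643 CPM in Ag and at 528, 527, 523, 668 and 599 CPM in Ag+Costim, a difference of 0.55 ± 0.31 (log2, SE, BH = 0.311). Ccnd2 was at 472, 185, 137, 473 and 218 CPM in Ag and at 241, 229, 248, 235 and 222 CPM in Ag+Costim. The Ag libraries thus lay on either side of a narrow Ag+Costim range, and the fitted difference was -0.34 ± 0.33 (BH = 0.521). With Ag replicates 1 and 4 left out the sign turned, to 0.39, and the 3 remaining Ag libraries all lay below the 5 Ag+Costim libraries (BH = 0.344).

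The partners of the D cyclins, like Ccnd3 and unlike Ccnd2, were lowest in Ag replicates 1 and 4. Cdk6 was at 14.1, 31.9, 45.9, 15.3 and 38.7 CPM in Ag and at 52.9, 54.7, 45.8, 69.7 and 64.9 CPM in Ag+Costim. A single Ag library reached the lowest Ag+Costim value, and the difference was 1.98-fold, 0.98 ± 0.32 (log2, SE), with a BH of 0.230 in edgeR. Cdk4, at 173, 538, 299, 174 and 597 CPM in Ag and 473, 483, 487, 580 and 497 CPM in Ag+Costim, differed by 0.50 ± 0.35 (BH = 0.383), and its 2 highest Ag libraries exceeded most Ag+Costim libraries. Cdk4 shares 641 exonic bases with Tspan31 on the opposite strand, Ccnd3 shares 361 with Bysl and Cdk6 shares 368 with Gm17590, so a part of their counts may belong to these neighbours.

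The inhibitors went opposite ways in the libraries that stood apart. Cdkn1b, which encodes p27, was at 29.4, 13.7, 9.39, 27.2 and 7.14 CPM in Ag and at 12.8, 12.1, 15.7, 7.49 and 9.26 CPM in Ag+Costim, with a difference of -0.60 ± 0.39 (log2, SE, BH = 0.361). Cdkn1a, which encodes p21, was at 0.334, 6.08, 6.66, 0.568 and 9.04 CPM in Ag and at 9.17, 7.06, 3.69, 5.89 and 8.70 CPM in Ag+Costim, with a difference of 0.61 ± 0.76 (BH = 0.617). In Ag replicates 1 and 4 p27 message was above and p21 message below every other library. Without those libraries the differences were 0.20 for Cdkn1b and -0.062 for Cdkn1a, so neither direction held. Cdkn1a overlaps the unclassified transcript AC167363.2 by 273 exonic bases, and Cdkn1b overlaps no annotated gene.

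**Figure D2:**
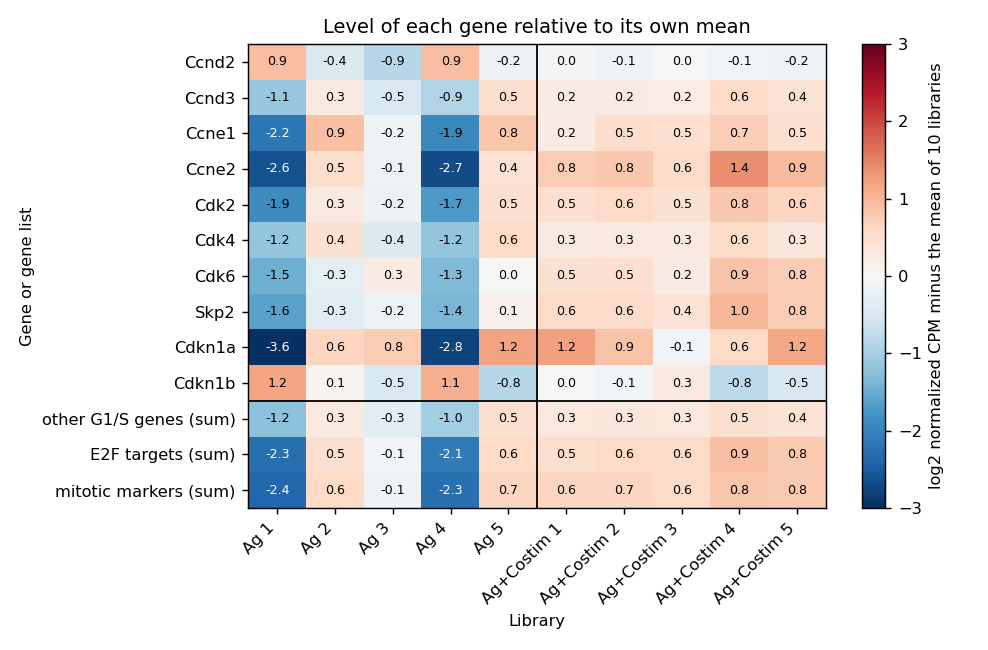
The colour and the printed value give log2 normalized CPM of each gene, or of the sum of a gene list, minus its own mean over the 10 libraries, with libraries in columns and Ag left of the line. Ag 1 and Ag 4 lie beyond all other libraries in every row, above them for Ccnd2 and Cdkn1b and below them for the other genes and the 3 list sums.

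The same 2 libraries were low in markers of cycling cells. The sum of 15 mitotic markers was 733 and 777 CPM in Ag replicates 1 and 4, 3465 to 5911 in the other 3 Ag libraries and 5591 to 6694 in Ag+Costim. The sum of 24 E2F target genes was 1528 and 1695 CPM in those 2 libraries, 6863 to 11130 in the other Ag libraries and 10618 to 13647 in Ag+Costim. What sets these libraries apart was not tested, and the number of cells in cycle cannot be told apart from other differences between the samples.

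**Figure D3:**
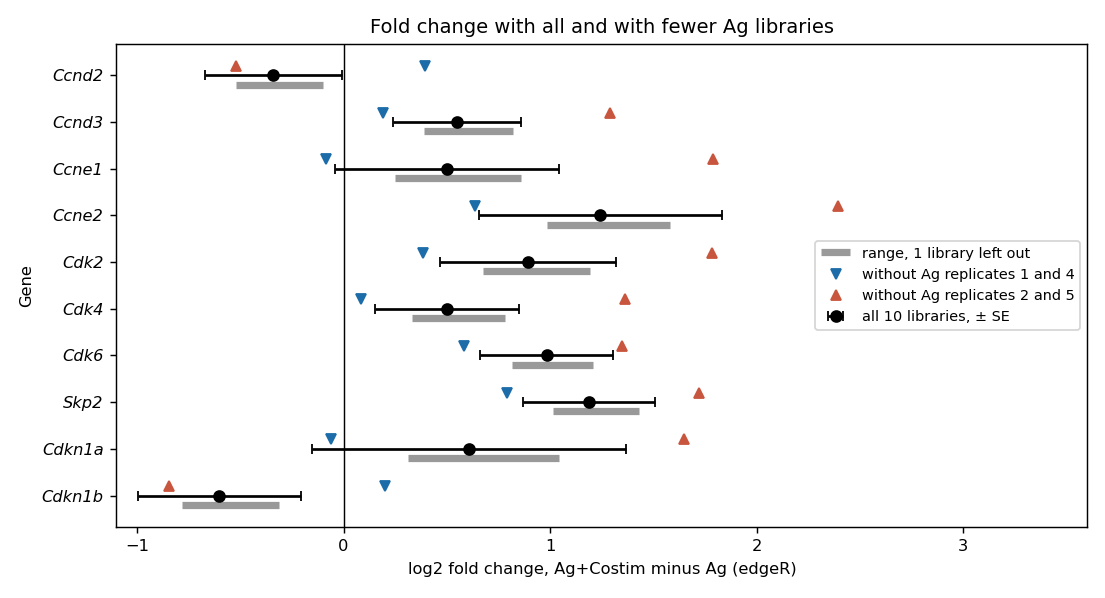
Black points are edgeR log2 fold changes, Ag+Costim minus Ag, with standard errors over all 10 libraries, grey bars the range when 1 library was left out, and triangles the values with 2 Ag libraries left out. Leaving out Ag replicates 1 and 4 brings all 10 values to between -0.083 and 0.79, and leaving out replicates 2 and 5 moves Ccne2 to 2.39.

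The size of the differences hung on the Ag libraries used. With Ag replicates 2 and 5 left out instead, chosen as the counterpart after the data were seen, 7 of the 10 were called higher at BH under 0.05, as were 6001 of the 33480 genes then tested, or 17.9%, with 10321 called lower. Scaling moved the fitted values as well, and over genes at 10 CPM or more the middle value of the differences was 0.24 under TMM, 0.12 under DESeq2 size factors, 0.017 under upper quartile scaling and 0.0028 under total counts. Relative to that median, the difference of Skp2 was 0.95 to 0.999, that of Ccne2 1.005 to 1.139, that of Cdk6 0.74 to 0.77, that of Cdkn1b -0.997 to -0.840 and that of Ccnd2 -0.72 to -0.58 over these 4 scalings. All 10 genes kept the sign of their difference under each of them.

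Between genes, levels were compared per transcript length and scaled to the same total in each library. In Ag+Costim the order was Ccnd3 at 459 ± 60.7 (SD, n = 5), Cdk4 at 387.4 ± 29.004, Ccne1 at 116 ± 12.7, Cdk2 at 112 ± 9.19, Ccnd2 at 61.8 ± 4.02, Ccne2 at 57.6 ± 12.6, Skp2 at 14.4 ± 2.44, Cdk6 at 10.4 ± 1.93, Cdkn1a at 6.52 ± 2.73 and Cdkn1b at 5.98 ± 1.73. By group mean, cyclin D3 and Cdk4 messages were the most abundant in both groups, and both inhibitors were the lowest in Ag+Costim. The ranges of mean ± SD of neighbours in this order overlapped except at the steps from Cdk4 to Ccne1, from Cdk2 to Ccnd2 and from Ccne2 to Skp2. In Ag, Ccnd2 was at rank 3 with 95.1 ± 68.8 and Cdkn1b at rank 7 with 10.8 ± 8.39. The order of D cyclins within a library showed the same split, with Ccnd2 at 0.673 and 0.551 of Ccnd3 in Ag replicates 1 and 4, 0.105 to 0.142 in the other Ag libraries and 0.112 to 0.155 in Ag+Costim. Skp2 message per Cdkn1b message was 0.187 and 0.260 in Ag replicates 1 and 4, 1.19 to 2.64 in the other Ag and 1.34 to 4.43 in the Ag+Costim libraries.

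Most other genes of the pathway had higher fitted levels in Ag+Costim, and none passed the test. The shares to read the counts against are those of genes at 10 CPM or more, of which 75.6% were higher and 11.3% were higher without overlap. Of 43 further G1/S genes (other cyclins, inhibitors, the retinoblastoma and E2F families, ligase subunits), 40 had a higher and 3 a lower fitted level, 0 were called, 10 did not overlap between groups, all higher, and the median log2 difference was 0.58, against 0.24 for all genes at 10 CPM or more and -0.32 for all genes tested. Those with the smallest p among the 10 were E2f3 (0.91 ± 0.24, BH = 0.189) and E2f2 (0.72 ± 0.20, BH = 0.199), which encode activating E2F factors, and Rbl1 (0.80 ± 0.23, BH = 0.204), which encodes the pocket protein p107. E2f3 was at 6.08, 8.86, 11.8, 6.70 and 14.7 CPM in Ag and at 16.1, 17.2, 18.998, 20.2 and 18.2 CPM in Ag+Costim. All 24 E2F targets were higher, 9 without overlap and 0 called, with a median of 0.90. Leading these were Pola1 of DNA polymerase alpha (1.24 ± 0.35, BH = 0.199), the maintenance methyltransferase Dnmt1 (1.05 ± 0.36, BH = 0.236) and Pole of DNA polymerase epsilon (1.05 ± 0.41, BH = 0.257). All 15 mitotic markers were higher, 4 without overlap and 0 called, with a median of 0.94, led by Mki67 (1.10 ± 0.37, BH = 0.233), the spindle motor Kif11 (1.08 ± 0.50, BH = 0.271) and topoisomerase Top2a (0.98 ± 0.47, BH = 0.278). Without Ag replicates 1 and 4 the medians were 0.22, 0.31 and 0.35 for the 3 lists, and 0.15 for all genes at 10 CPM or more.

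Genes with the most similar profile were sought among 8611 genes at 10 CPM or more, by the root mean square difference of log2 CPM from each gene's own mean over the 10 libraries. Nearest to Skp2 were Pfas, Polh and Naa50, at 0.109 to 0.159, where the median gene was at 0.708. Ccne1 was nearest to Rpa2, Rfc3 and Gm4739 (0.120 to 0.132), and Ccne2 to Kif20a, Nek2 and Rrm1 (0.131 to 0.167). The neighbours of Cdkn1a were Prdm1, Cercam and Ttc39c (0.268 to 0.317), and those of Cdkn1b were Chd2, Gm1966 and Mycbp2 (0.171 to 0.199). These distances are a description over 10 libraries of which 2 stand far from the rest.

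The 10 genes carry 76 annotated transcripts, and most counts fell on few of them. Ccnd2-201, Ccne1-201, Cdk4-201 and Cdk6-202 each held a group mean of over 90% of their gene's counts in both groups. Transcript usage, tested with edgeR's diffSpliceDGE, was called (BH under 0.05 and a share moved by over 10 percentage points) for none of the 10, against 31 of 10441 genes or 0.297%. Cdk6, Skp2 and Cdk2 were at an unadjusted p under 0.05 and had BH values of 0.587, 0.625 and 0.680. The largest moves of a mean share were in Ccnd3, where Ccnd3-215 went from 73.5 ± 12.5% to 51.7 ± 21.5% (SD, n = 5), and in Ccne2, where Ccne2-202 went from 40.1 ± 31.9% to 20.3 ± 10.8%. In both genes the shares varied from library to library, Ccnd3-202 being at 0% in Ag replicates 2, 3 and 5 and Ag+Costim replicate 1 and at up to 56.7% elsewhere, and transcripts that share most of their exons are hard to tell apart by counting.

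Skp2 was examined by where its transcripts end. Skp2 lies on the minus strand of chromosome 15 (mm10), and its transcripts Skp2-201 and Skp2-202 share a distal end, Skp2-203 has a proximal end within the same last exon, and Skp2-205 stops in an intron past a coding exon. The last 30 bases of each are shown because the results below turn on them, with the polyadenylation signal AATAAA or a closing run of A in capitals.
Skp2-201 and Skp2-202, distal end (chr15:9111985-9112014): tttaaAATAAAtacatttttataagaacaa
Skp2-203, proximal end (chr15:9113302-9113331): cccaagttttaaaaattacccgtggctaac
Skp2-205, intronic end (chr15:9127048-9127077): tttttttcaaaccaagcAAAAAAAAAAAAA
Of the 3 windows, the distal one is the one that holds AATAAA, no window holds ATTAAA, and the intronic one closes in 13 A.

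The share of Skp2 counts on the distal end separated the groups. It was 90.9, 91.7, 92.4, 92.0 and 94.7% in the Ag libraries and 96.3, 96.8, 96.6, 97.7 and 96.9% in the Ag+Costim libraries, with 1256 to 15396 Skp2 counts per library. Every Ag+Costim library was above every Ag library, and Ag replicates 1 and 4 did not stand apart from the rest here. The counts are estimates for whole transcripts and not of reads at the end itself. The share of all genes that separate in this way was not computed. The means of 92.3 ± 1.44% and 96.9 ± 0.55% (SD, n = 5) differed by 4.54 percentage points in a two-sided exact permutation test (p = 0.0079, the smallest that 5 against 5 libraries allow). With counts divided by transcript length the difference was 11.02 points (exact permutation p = 0.0079). The remaining counts lay on Skp2-205 and Skp2-204, neither of which has a coding region. Skp2-205, of the retained-intron class, held 8.29, 8.33, 6.05, 7.68 and 5.32% of the counts in Ag and 3.62, 3.16, 3.29, 2.23 and 3.13% in Ag+Costim. Skp2-204 held 0 to 1.59% in Ag and 0 to 0.143% in Ag+Costim, and its mean share differed by -0.49 points, against -4.05 for Skp2-205. In the usage test over all genes, neither Skp2-205 (log2 relative to the gene -0.80, BH = 1) nor Skp2-204 (-2.12, BH = 0.589) was called. Skp2-203, with the proximal end, was listed at 0 counts in every library. With protein-coding transcripts only, the distal share was therefore 100% throughout and the difference 0, and the call ended (exact permutation p = 1). Without Ag replicates 1 and 4 the difference was 3.95 points (exact permutation p = 0.0179, the smallest that 3 against 5 libraries allow).

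The percent spliced in (PSI) of Whippet, a fraction from 0 to 1 with 1 value for each group, gave another picture of the same ends. The distal node, chr15:9111985-9113301, was at 0.984 in Ag and 0.913 in Ag+Costim, and the node that ends at the proximal site, chr15:9113302-9113867, at 0.0159 and 0.0871. By PSI the distal end of the last exon was thus used less in Ag+Costim, by 0.0710, while the counts placed nothing on the proximal transcript. PSI here compares the ends of the last exon alone and leaves out the intronic end. With 1 value a group it has no error, so the direction of last-exon end use could not be checked against replicates. The coding exon that Skp2-205 runs past, chr15:9127886-9127997, was included at 0.952 (Ag) and 0.998 (Ag+Costim), and the other 7 core exons of Skp2 were between 0.988 and 0.998 in both.

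Intron retention was the second feature of Skp2. Skp2-202 differs from Skp2-201 by keeping the last intron, chr15:9113868-9116860, and by a start 74 bases further upstream. Its annotated reading frame has 354 codons against 424. The splice sites of that intron are given with 10 exonic and 20 intronic bases, and the intron's first or last 2 bases are in capitals.
Skp2 last intron, 5' splice site (chr15:9116841-9116870): atactctactGTaagtatgatttacattta
Skp2 last intron, 3' splice site (chr15:9113858-9113887): aatttgctcttcctttgcAGtgaacttgga
By PSI the intron was retained at 0.0917 in Ag and 0.0287 in Ag+Costim. By counts, Skp2-202 held 49.2, 5.46, 32.01, 33.6 and 8.19% of the gene in Ag and 17.5, 27.0, 31.4, 20.7 and 11.3% in Ag+Costim. The Ag libraries spanned both ends of the Ag+Costim range, and the means of 25.7 ± 18.5% and 21.6 ± 7.91% (SD, n = 5) lay within their spread. Both mean shares were larger than the PSI of their group. The share of Skp2-202 also depends on reads of its upstream start, so it does not measure retention alone.

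Cdkn1b has a similar pair, with Cdkn1b-202 keeping an intron of the 3' UTR, chr6:134922084-134924242, that Cdkn1b-201 removes, and both encode the same 197 codons. Its splice sites are shown in the same form for comparison with those of Skp2.
Cdkn1b intron, 5' splice site (chr6:134922074-134922103): aacagctccgGTgggttaatgaggaagaac
Cdkn1b intron, 3' splice site (chr6:134924223-134924252): ttcttttgtttcttttgcAGaattaagaat
PSI of this intron was 0.247 in Ag and 0.186 in Ag+Costim. Cdkn1b-202 held 43.1, 42.5, 79.6, 49.3 and 21.04% of the counts in Ag and 44.2, 52.1, 30.4, 32.9 and 34.5% in Ag+Costim, with means of 47.1 ± 21.1% and 38.8 ± 9.10% (SD, n = 5). The highest and the lowest of the 10 values were both from Ag, and the groups overlapped.

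**Figure D4:**
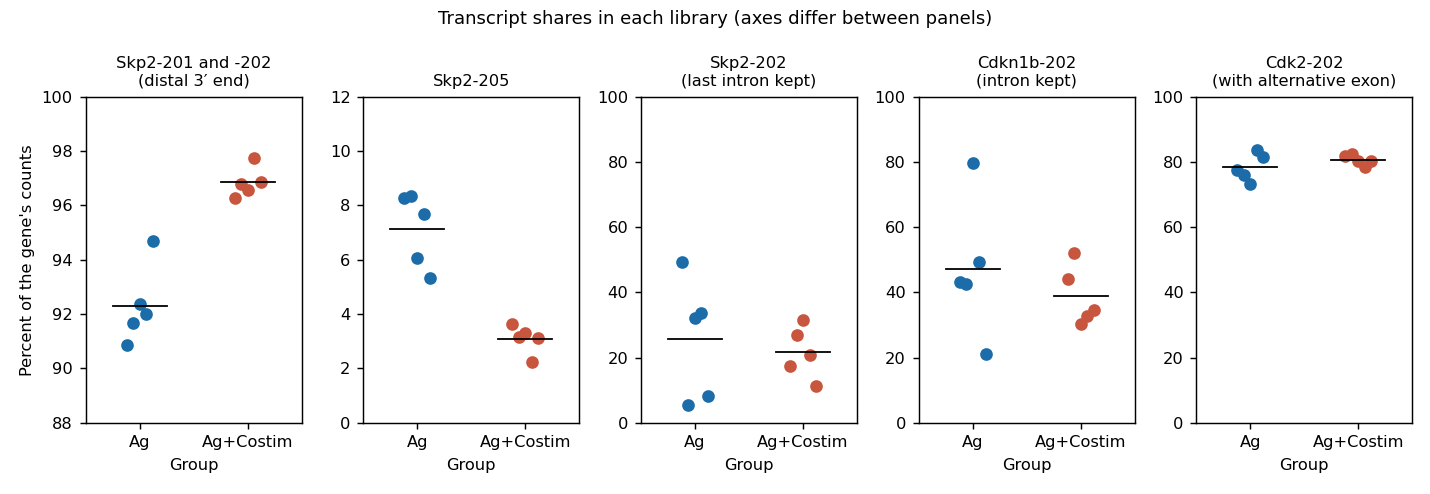
Each point is the percent of a gene's counts on the named transcripts in 1 library, with Ag in blue, Ag+Costim in red and lines at the group means, and the vertical axes differ between panels. The groups are apart for the distal Skp2 end (90.9 to 94.7% and 96.3 to 97.7%) and for Skp2-205, and overlap for Skp2-202, Cdkn1b-202 and Cdk2-202.

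Counts on transcripts of the retained-intron class were also taken over all members that have such a transcript. In Ccnd3, where 5 transcripts belong to the class, the share was 12.3, 1.44, 2.50, 11.01 and 1.18% in Ag and 0.455 to 1.05% in Ag+Costim, with no overlap. Skp2 was the other gene without overlap, by Skp2-205. Over all genes at 10 CPM or more with such a transcript counted, 3.42% of 5433 had a lower share in Ag+Costim without overlap and 0.11% a higher one. Shares overlapped in Ccnd2, Ccne1, Cdk2, Cdk4 and Cdk6, and in each of these Ag replicates 1 and 4 were above Ag replicates 2 and 5. Ag replicate 3, with the fewest counts, varied from gene to gene.

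Cdk2 is made in a long and a short form that differ by a coding exon of 144 bases, or 48 codons, chr10:128699976-128700119, present in Cdk2-202 and skipped in Cdk2-201. This exon is shown whole because it is the one core exon of the 10 genes that was used about equally with its skipping.
Cdk2 alternative exon (minus strand): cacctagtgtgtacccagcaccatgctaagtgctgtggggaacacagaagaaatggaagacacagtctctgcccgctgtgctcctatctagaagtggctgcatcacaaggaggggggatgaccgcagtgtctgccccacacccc
Its PSI was 0.498 in Ag and 0.478 in Ag+Costim. Cdk2-202 held 77.4, 75.9, 73.3, 83.6 and 81.4% of the counts in Ag and 81.9, 82.4, 80.3, 78.5 and 80.3% in Ag+Costim. The means of 78.3 ± 4.16% and 80.7 ± 1.54% (SD, n = 5) lay within their spread, and Cdk2 levels that ranged over 5.17-fold in Ag went with shares of 73.3 to 83.6%. Here too the transcript counts and PSI put inclusion at different levels.

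The PSI table holds 100 events of the 10 genes, 57 of them core exons, 20 ends, 11 starts, 4 retained introns, 6 alternative splice sites and 2 alternative first exons. A difference over 0.05 between the group values was found in 18 of the 100, 7 toward Ag+Costim and 11 toward Ag, against 11.9% of all 138940 events. By kind of event, 9 of 20 ends passed, against 43.0% of the ends of all genes, 2 of 57 core exons, against 5.5%, and 2 of 4 retained introns, against 31.6%. Both of these introns had the higher PSI in Ag, as did 230 of the 306 retained introns past the threshold over all genes. Of the 18, 5 were in Skp2, 3 each in Ccnd3, Ccne2 and Cdkn1a, 2 in Ccnd2, 1 each in Ccne1 and Cdkn1b, and 0 in Cdk2, Cdk4 and Cdk6. Just outside the threshold were the ends of Cdk6 (0.0478) and the Skp2 exon described above (0.0457), and just inside was an alternative 3' splice site of Ccne2 that adds 3 bases (0.877 in Ag, 0.821 in Ag+Costim).

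**Figure D5:**
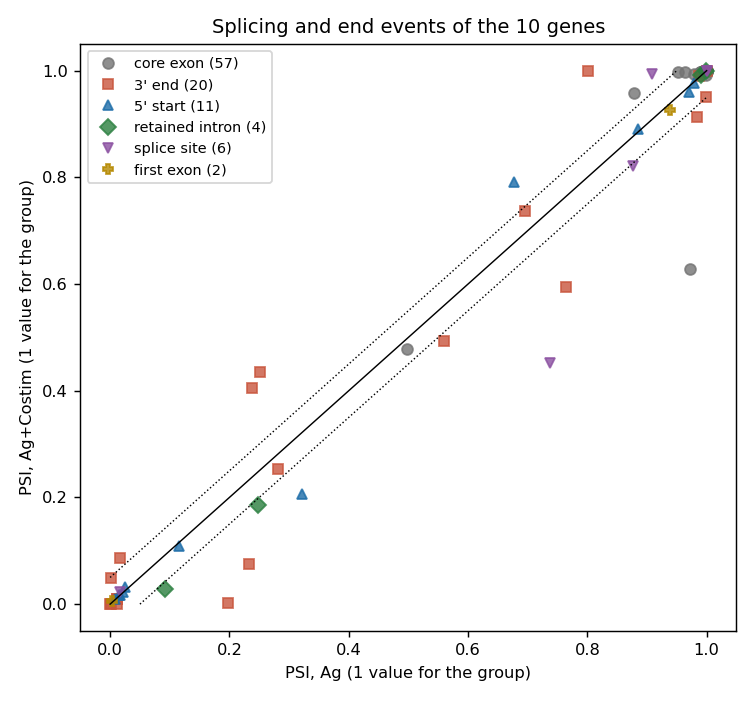
PSI of the 100 events in Ag (horizontal) and Ag+Costim (vertical), by kind of event, with the line of equality and dotted lines at a difference of 0.05. Core exons gather at the upper right corner except for a Ccnd3 exon below the line (0.971 and 0.627), a Ccne1 exon above it (0.878 and 0.958) and the Cdk2 exon near the middle.

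The largest differences were in Ccnd3. An upstream exon of Ccnd3 at chr17:47578709-47578773 was at 0.971 in Ag and 0.627 in Ag+Costim, and the 5' splice site that extends it by 19 bases at 0.738 and 0.453. In the transcript counts the latter extension took 70.1 to 99.6% in Ag and 35.3 to 97.4% in Ag+Costim, and the groups overlapped. A coding exon of Ccne1, chr7:38099247-38099358, was at 0.878 and 0.958. Ccne2 ends that lie 7 bases apart were at 0.802 and 0.999 for the proximal and 0.198 and 0.00127 for the next site. The most distal end, 97 bases further on, was at 0.00101 and 0.000172. By counts, the transcript of that end, Ccne2-201, held means of 38.8% in Ag and 56.7% in Ag+Costim, far from its PSI. The shares of all matching transcripts overlapped between groups. Skp2 starts that lie 74 bases apart were at 0.677 and 0.791 for the upstream and 0.322 and 0.207 for the downstream one. A pair of Ccnd2 ends was at 0.238 and 0.405 for the proximal and 0.763 and 0.594 for the distal site. They belong to Ccnd2-204 and Ccnd2-202, minor transcripts with group means of 0.008 to 0.382% of Ccnd2 counts. Of the counts on this pair, the proximal end took 13.6% in Ag and 1.97% in Ag+Costim, the opposite direction. The groups overlapped, and a library had as few as 39 such counts. Of the 3 ends of Cdkn1a past the threshold, the proximal was at 0.559 and 0.494, the middle at 0.251 and 0.436 and the distal at 0.232 and 0.0748, on a gene whose libraries went down to 0.334 CPM. No annotated transcript ends in the proximal or middle node. The distal node therefore held 100% of the counts on transcripts ending in these nodes, whatever the cells used, and the counts cannot test this difference.

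Core exons were included at over 0.95 in both groups in 54 of 57 cases. PSI was higher in Ag+Costim for 53 of the 57, or 93.0%, and the same direction held for 79.5% of the 108356 core exons of all other genes. The 4 exceptions were the Ccnd3 and Cdk2 exons named above and an exon each of Ccnd3 and Ccne1 that stayed over 0.99 in both groups.

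Promoter sequences from RefSeq (GRCm38.p6) were at hand for 8 of the 10 genes, in 11 windows of 250 bases upstream of a start. They were searched on both strands for 4 forms of the E2F site, TTTGGCGC, TTTCGCGC, TTTCCCGC and TTTGCCGC. One window held a match, that of Cdk2, where GCGGGAAA, the reverse complement of TTTCCCGC, begins 140 bases before the start. The match is shown in capitals.
Cdk2 promoter (chr10:128705052-128705301, minus strand): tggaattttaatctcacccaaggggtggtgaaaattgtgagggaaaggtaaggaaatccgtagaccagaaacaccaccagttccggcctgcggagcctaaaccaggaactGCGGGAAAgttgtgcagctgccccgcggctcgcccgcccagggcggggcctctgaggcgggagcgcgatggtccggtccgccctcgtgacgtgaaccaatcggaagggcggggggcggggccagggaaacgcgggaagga
Any of the 4 forms was present in 611 of 32851 such windows, or 1.86%. A match describes the letters of this window and is not evidence of binding, which was not measured.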

How the data were processed

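Poly(A) RNA of sorted CD8+ T cells was sequenced by the authors with the SMART-Seq v4 and Nextera XT kits, which do not mark strand. The submitters' processing notes name the build mm10 and the tools HISAT2 2.1.0 (an aligner), SAMtools 1.9, StringTie 2.1.0 (which estimates counts), R 4.0.5 and DESeq2 1.30.1. In the deposited tables, genes and transcripts have estimated counts, already whole numbers and not normalized, 1 column per library. They derive from coverage, so totals are not reads. The authors ran Whippet on the reads, and its deposited PSI fraction is 1 value per group. The columns of the authors' own comparison in that table (a PSI difference and its probability) were not used, so the planned probability threshold was replaced by the PSI difference alone.

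Of the entries for genes, 55536 had an identifier that matched GENCODE M21, and 26345 that did not match (0.0458% to 0.308% of counts) were left out. Over all genes, Ag+Costim was compared with Ag by the quasi-likelihood test of edgeR 4.0.16 (TMM, filterByExpr) in R 4.3.3, transcript usage with diffSpliceDGE and Skp2 end shares with a two-sided exact permutation test. The fits of edgeR, DESeq2 and limma voom and the usage test of diffSpliceDGE were first run on simulated data. All simulated libraries had the same spread, unlike the Ag libraries here, and the exact permutation test was not simulated. Alternatives were other scalings, no count filter, DESeq2 1.42.0, limma 3.58.1, a replicate block and libraries left out. The numbers of the labels did not pair the libraries (correlations of same-numbered libraries from -0.091 to 0.107). Members, gene lists and tests were chosen with earlier results of these data known. All members were described. From each further list up to 3 genes in each direction were named, with a mean of at least 10 CPM in the higher group, no overlap and the smallest p. A gene described as sharing exonic bases with a neighbour is uncertain to that extent. Naive libraries were not analysed here.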

Additional observations from a re-analysis of the deposited data

Results flagged for a closer look

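Each group of 5 libraries was searched for a value whose gap to its nearest neighbour exceeded Dixon's 95% critical value of 0.71 of the group's range, over 60 groups of values for the levels, transcript shares and end share of the members. Such values numbered 5, and chance alone gives about 1 in 20. Cdk4 in Ag+Costim replicate 4, at 580 CPM, was far above the other Ag+Costim libraries. Ccnd2-201 held 96.7% of Ccnd2 counts in Ag+Costim replicate 5, the lowest of its group, and Ccnd3-205 held 27.8% of Ccnd3 counts in the same library, the highest of its group. Cdkn1a-201 held 39.7% of Cdkn1a counts in Ag replicate 1, where the gene was at 0.334 CPM. Cdkn1a-203 held 7.16% in Ag+Costim replicate 2. Ag replicates 1 and 4 were alike and so did not meet this criterion in any level.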

How the results depend on the processing

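Directions of the 10 members held in all alternatives except that, without Ag replicates 1 and 4, Ccnd2 (0.39), Ccne1 (-0.083), Cdkn1a (-0.062) and Cdkn1b (0.20) changed sign. The number called, 0 of 10, became 2 with DESeq2, 10 with limma voom and 7 without Ag replicates 2 and 5. Of the 43 further G1/S genes, 24 E2F targets and 15 mitotic markers, 0 were called in edgeR. The numbers were 9, 2 and 1 with DESeq2, 36, 24 and 15 with limma voom, and 35, 24 and 15 without Ag replicates 2 and 5. All these calls were higher in Ag+Costim except 1 of the 36 with limma voom. In these settings, in the same order, 2.58%, 25.8% and 17.9% of all genes were called higher. Called in either direction were 22.3%, 52.2% and 48.8%. Members without overlap, 2 in the report, and all higher in Ag+Costim, were 1 with upper quartile scaling (1.48% of all genes), 4 without a count filter (4.85%), 4 without Ag replicates 1 and 4 (6.92%), 7 without Ag replicates 2 and 5 (18.7%, and 33.9% lower), and 3 to 4 when a single library was left out (4.14% to 7.01%), 4 without Ag replicate 5 or Ag+Costim replicate 3. These shares are over all genes, and those of genes at 10 CPM or more were not computed in these settings. With all libraries in edgeR, the share among the latter was 11.3%, against 4.48% of all genes. A difference of PSI over 0.1 held for 10 events. The planned probability over 0.95 was not run, since that column holds the authors' comparison. The Skp2 end difference was 0 with protein-coding transcripts only and 4.54 points with the replicate block, where an exact sign-flip test over same-numbered libraries gave p = 0.0625, the smallest that 32 sign flips allow, so this test could not pass. The numbers do not pair the libraries, 1 of 5 Ag libraries correlated best with its own number, and the block left the 0 calls of members and lists as they were. Transcript usage gave 0 calls among the members in every setting. Causes of these changes were not tested. The spread among 5 Ag libraries limits precision, and other limits were not separated from it.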
